A study of Homo sapiens with 12 samples.

Results

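The HOX cluster genes are the protein-coding rows whose name is HOX, a cluster letter from A to D and a number, and 39 of the 32010 genes in the table met that rule. HOX genes encode homeodomain transcription factors that give cells their position along the body axis. They stand in 4 clusters in which the order of the genes follows the order of their expression in the embryo, from anterior genes at the 3' end of a cluster to posterior genes at its 5' end. Their proteins bind DNA with TALE homeodomain cofactors (PBX, MEIS and PKNOX proteins). Polycomb complexes keep the clusters silent, MLL and other trithorax proteins keep them active, and retinoic acid receptors and CDX factors act on them in the embryo.

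Polyadenylated RNA was measured in HEK293 Flp-In cells, which derive from human embryonic kidney and carry a genomic site for inserting a transgene. There were 12 libraries in 4 groups of 3 replicates. ΔE8 cells received 1 siRNA against TAF5 and expressed, under doxycycline, an siRNA-resistant TAF5 that lacks exon 8. FL cells received the same siRNA and expressed siRNA-resistant full-length TAF5. The siTAF5 cells had the TAF5 siRNA and no named rescue, and the siNT cells had a non-targeting siRNA. Every library is labelled as having had siRNA and doxycycline, which was added 24 h after transfection for 48 h, at a dose that differed between the FL and ΔE8 cells. The labels state neither the line used for siTAF5 and siNT cells nor whether a line is 1 clone. TAF5 is a subunit of TFIID, the complex that recognises core promoters for RNA polymerase II, and the series asked whether its exon 8 affects gene expression. Nothing states that replicates were separate cultures, so p-values measure only the spread between these libraries, which may be technical. In bulk RNA, fewer cells expressing a gene and less RNA per cell cannot be told apart.

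Libraries held 41.8 to 62.5 M estimated counts. Levels are given as CPM (counts scaled to library size after trimmed-mean normalisation), and between genes as RPKM, which is CPM per kilobase of exon. TAF5 had 87.6, 87.5 and 88.8 CPM in ΔE8 libraries, 103, 106 and 107 CPM in FL, 6.13, 7.35 and 6.68 CPM in siTAF5 and 39.2, 40.5 and 40.2 CPM in siNT. The 3 siTAF5 libraries were lowest, and gene counts do not separate the forms with and without exon 8. All 10 HEK293 markers (such as KRT8, VIM and NEFL) had a mean of at least 1 CPM, against 0 of 5 blood cell and 0 of 3 endothelial markers. The HEK293 markers summed to 2316 to 2384 CPM in ΔE8, 2051 to 2116 in FL, 2177 to 2269.5 in siTAF5 and 2018 to 2083 in siNT. Of the 10, 1 was higher and 7 lower in siTAF5 than in siNT (median log2 -0.19), and 2 were higher and 6 lower in ΔE8 than in siNT (median log2 -0.33). Of all genes tested, 24.7% were higher and 25% lower in siTAF5 than in siNT, and 30.8% higher and 31.4% lower in ΔE8 than in siNT. The summed level was nevertheless higher in siTAF5 and in ΔE8 than in siNT. Of 5 fibroblast markers COL1A1 and COL3A1 reached 1 CPM and COL1A2 and DCN were near 0. The fibroblast markers summed to 8.28 to 8.81 CPM in ΔE8, 8.74 to 10.1 in FL, 10.4 to 11.3 in siTAF5 and 16.9 to 17.5 in siNT. The part of either marker list in the results on HOX genes was not tested.

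The HOXA cluster has 11 genes on chromosome 7 (hg38, minus strand; HOXA2 to HOXA13 span 27100354 to 27200091), and the HOXB cluster 10 genes on chromosome 17 (48528526 to 48728750, minus strand). The HOXC cluster has 9 genes on chromosome 12 (53938831 to 54056030, plus strand), and the HOXD cluster 9 genes on chromosome 2 (176092721 to 176190907, plus strand). Paralog numbers 1 to 3 are called anterior here, 4 to 8 central and 9 to 13 posterior. Several HOX genes lie inside the span of a neighbour, as HOXA4, HOXA5 and HOXA6 do inside HOXA3, and the spans of HOXA9 and HOXA10 share 4576 bases. Exons on the same strand are shared by HOXC4 and HOXC6 over 484 bases (21.4% of the exon bases of HOXC4, 14.9% of those of HOXC6) and by HOXB3 and HOXB4 over 121 bases. The rule that assigned reads in such stretches was not found in the labels, so the levels of those 4 genes are uncertain at least to that extent. Exons were compared between HOX genes only. Unnamed protein-coding rows overlap the spans of HOXA9 and HOXA10 (27163535 to 27180013) and of HOXC genes including HOXC5 (53985845 to 54034888). Unnamed non-coding rows on the same strand overlap the spans of HOXA3, HOXA4, HOXA5, HOXA6, HOXB3, HOXC4, HOXC5 and HOXC6. Reads shared with these rows were not measured.

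Since TFIID works at the core promoter, RefSeq windows around the starts of 4 posterior genes are shown, from 250 bases before the start to 50 after it (GRCh38.p14). HOXA13, HOXA11 and HOXA10 stand at the 5' end of the HOXA cluster and were lower in TAF5-depleted cells. HOXD13 stands at the 5' end of the HOXD cluster and was not lower there. Capitals mark TATAAA or its reverse complement TTTATA.
HOXA13 lies at chr7:27200042-27200341 (minus strand), with 76.3% G or C, 44 CG dinucleotides and no TATAAA on either strand.
HOXA13: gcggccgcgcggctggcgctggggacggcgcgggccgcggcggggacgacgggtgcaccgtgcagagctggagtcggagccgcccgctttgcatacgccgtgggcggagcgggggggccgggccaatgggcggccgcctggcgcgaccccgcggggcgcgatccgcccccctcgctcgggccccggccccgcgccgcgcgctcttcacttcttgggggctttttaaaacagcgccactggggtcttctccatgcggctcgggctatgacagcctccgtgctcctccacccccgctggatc
HOXA11 lies at chr7:27185183-27185482 (minus strand), with 51.3% G or C, 13 CG dinucleotides and no TATAAA on either strand.
HOXA11: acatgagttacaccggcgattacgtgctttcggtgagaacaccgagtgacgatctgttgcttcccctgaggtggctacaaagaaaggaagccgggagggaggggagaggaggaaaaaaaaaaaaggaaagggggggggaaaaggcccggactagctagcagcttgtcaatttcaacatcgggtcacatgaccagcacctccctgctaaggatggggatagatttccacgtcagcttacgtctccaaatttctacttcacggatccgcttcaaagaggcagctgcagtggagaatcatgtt
HOXA10 has 2 windows, at chr7:27179812-27180111 and chr7:27174271-27174570 (minus strand), with a match 222 bases before the first start and 150 bases before the other.
HOXA10, upstream start: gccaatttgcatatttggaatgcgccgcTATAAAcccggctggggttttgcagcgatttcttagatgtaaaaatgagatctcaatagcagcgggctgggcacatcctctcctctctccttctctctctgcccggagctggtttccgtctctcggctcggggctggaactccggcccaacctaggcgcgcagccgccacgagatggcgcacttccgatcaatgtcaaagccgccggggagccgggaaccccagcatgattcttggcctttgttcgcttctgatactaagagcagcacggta
HOXA10, downstream start: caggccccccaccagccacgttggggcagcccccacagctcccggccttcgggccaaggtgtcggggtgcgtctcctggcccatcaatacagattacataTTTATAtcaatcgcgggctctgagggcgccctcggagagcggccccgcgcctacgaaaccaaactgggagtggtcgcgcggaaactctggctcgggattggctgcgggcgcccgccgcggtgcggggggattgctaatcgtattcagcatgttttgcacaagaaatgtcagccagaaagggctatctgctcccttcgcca
HOXD13 lies at chr2:176092471-176092770 (plus strand), with 2 overlapping matches, 29 and 27 bases before the start, and 74% G or C.
HOXD13: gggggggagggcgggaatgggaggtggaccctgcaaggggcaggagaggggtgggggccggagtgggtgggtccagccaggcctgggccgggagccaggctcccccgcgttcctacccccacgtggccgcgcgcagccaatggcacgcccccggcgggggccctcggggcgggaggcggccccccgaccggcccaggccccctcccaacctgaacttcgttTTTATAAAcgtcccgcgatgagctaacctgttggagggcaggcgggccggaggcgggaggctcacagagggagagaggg

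A window was found for 20 of the 39 members, with 26 windows in all because some genes have several starts. HOXA3 had the most windows, HOXC4 and HOXC5 shared a window, and HOXB1 was the only HOXB gene with any. The shares below thus describe mainly HOXA and HOXD genes. TATAAA, searched on both strands, stood in 5 of these 26 windows (19.2%), against 11.6% of all 34943 promoter windows of the same length. CCAAT stood in 17 of 26 (65.4%), against 34.6% of all windows, and GGGCGG in 13 of 26 (50%), against 44.9%. These matches describe letters in a window only. Of the genes shown, HOXA10 and HOXD13 had TATAAA in their windows, and HOXA11 and HOXA13 did not. The HOXA10 matches lay farther from the start than those of HOXD13. Any link of such matches to the response to depletion was not tested.

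Most HOX genes were expressed in these cells. A mean of at least 1 CPM over the 12 libraries was reached by 36 of 39 members, that is all 11 HOXA genes, 9 of 10 HOXB genes, 8 of 9 HOXC genes and 8 of 9 HOXD genes. HOXC12 and HOXD12 were low (0.1 to 1 CPM), and HOXB1, a gene of the embryonic hindbrain, was near 0 with 0 to 10 counts per library. With a threshold of 0.5 CPM 37 members would count as expressed, and with 2 CPM or with 1 RPKM it would be 35. Of a library's total after trimmed-mean scaling, 0.114% to 0.127% fell on the 39 genes.

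Per kilobase of exon, HOXA9 and HOXB9 led all members with 61.3 and 58.2 RPKM over the 12 libraries. HOXA9 is a regulator of blood progenitors, and both belong to paralog group 9. Their order differed between groups. HOXA9 had 68.3 ± 0.727 RPKM and HOXB9 56.6 ± 0.929 RPKM in ΔE8 (SD, n = 3, as for all means ± SD here), while in siNT HOXA9 had 56.3 ± 1.02 and HOXB9 60.3 ± 0.756 RPKM. In FL they had 62.1 ± 0.0208 and 57.3 ± 1.7 RPKM. In siTAF5 they had 58.6 ± 1.53 and 58.8 ± 1.28 RPKM, a difference within the spread of the libraries.

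After them came HOXA10 (33.5 RPKM), HOXD13 (31.3), HOXB6 (30.2), HOXA5 (27.1) and HOXB2 (27.1). HOXA10 is needed in the uterus, HOXD13 shapes the digits, HOXA5 acts in the lung and HOXB2 in the hindbrain. Among the expressed members the lowest were HOXA2 (0.602 RPKM), which patterns the hindbrain and pharyngeal arches, HOXD1 (1.41), HOXC5 (1.43) and HOXD4 (1.49). HOXC12 stood at 0.0515 RPKM and HOXB1 below it.

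By position, posterior members had the highest median level. It was 16.3 RPKM over 16 posterior genes, 7.94 over 15 central genes and 3.54 over 8 anterior genes. The ranges overlapped widely, with HOXA9 and HOXC12 as the posterior extremes and HOXB2 and HOXB1 as the anterior ones. In the HOXD cluster the 5 posterior genes had a median of 18.3 RPKM, and HOXD1 and HOXD3 had 1.41 and 1.85 RPKM. In the HOXB cluster HOXB13, a prostate gene that stands far from the others, had 3.91 RPKM and HOXB9 58.2 RPKM. All these levels are descriptions without a test.

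**Figure D1:**
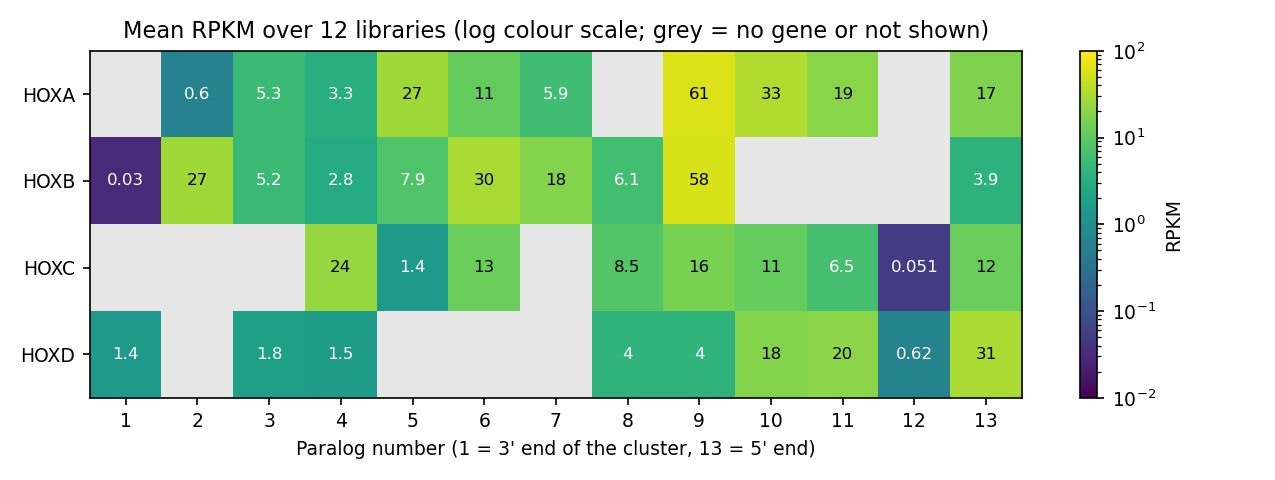
Mean RPKM over the 12 libraries for the HOX genes, by cluster (rows) and paralog number (columns), on a logarithmic colour scale, with grey where a cluster has no such gene or it is not shown. HOXA9 (61.3 RPKM) and HOXB9 (58.2 RPKM) are highest, and HOXB1 and HOXC12 are lowest.

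Summed over a cluster, levels moved most in HOXA in 4 comparisons, namely siTAF5 against siNT, FL against siTAF5, ΔE8 against siTAF5 and ΔE8 against FL. The HOXA genes summed to 451, 446 and 460.3 CPM in ΔE8, 518, 528 and 522 CPM in FL, 409, 401 and 410.3 CPM in siTAF5 and 495, 503 and 490.2 CPM in siNT. No 2 groups overlapped, with FL highest and siTAF5 lowest. The siTAF5 mean was 82% of the siNT mean, the FL mean 128% of the siTAF5 mean, and the ΔE8 mean 111% of the siTAF5 mean and 86.6% of the FL mean. With the rescues set against siNT, other clusters moved more. The ΔE8 mean was 114% of the siNT mean for HOXD, 109% for HOXC and 91.2% for HOXA. The FL mean was 109% of the siNT mean for HOXC and 105% for HOXA.

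The HOXB sum differed little, with 360.1 ± 4.8 CPM in ΔE8, 363 ± 2.33 in FL, 356 ± 2.32 in siTAF5 and 367 ± 5.44 in siNT. The HOXC sum was 214 ± 2.97 CPM in ΔE8, 215 ± 2.83 in FL, 217 ± 1.34 in siTAF5 and 197 ± 1.98 in siNT, and the siNT libraries stood below all others. The HOXD sum was 179 ± 2.7 CPM in ΔE8, 161 ± 5.22 in FL, 165 ± 1.58 in siTAF5 and 158 ± 0.672 in siNT, and the ΔE8 libraries stood above all others. HOXD13 alone made up 42.3% of the HOXD sum and HOXB9 41.6% of the HOXB sum, so these sums weigh their largest gene most.

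**Figure D2:**
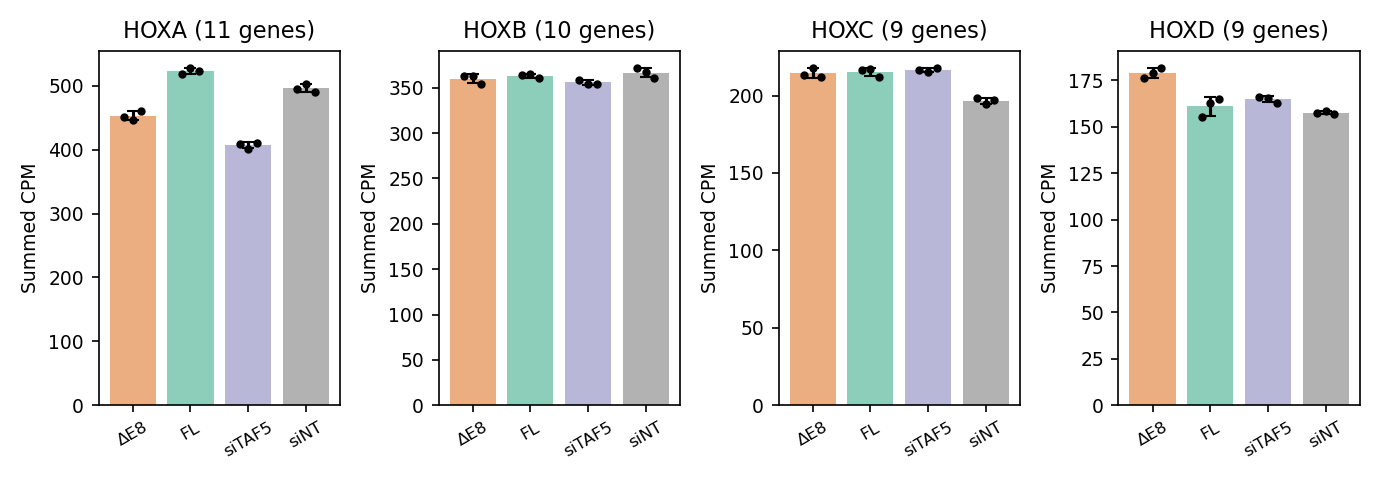
Summed CPM of the members of each HOX cluster in ΔE8, FL, siTAF5 and siNT libraries (points), with the mean and SD of 3 libraries per group. HOXA sums separate the 4 groups, with a mean of 523 CPM in FL and 407 CPM in siTAF5, and HOXB sums lie close together.

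On TAF5 depletion the genes at the 5' end of the HOXA cluster fell, and HOXD1 rose most among expressed HOX genes. The edgeR quasi-likelihood test called 9 HOX genes higher and 7 lower in siTAF5 than in siNT (adjusted p under 0.05, Benjamini-Hochberg over all genes). That was 42.1% of the 38 members tested, against 49.7% of all genes tested (24.7% higher, 25% lower) and 60.3% of those with at least 1 CPM, so HOX genes were not called more often than other genes. Their median log2 difference was 0.02 (0.00 over all genes), and the median size of the difference was 0.17 (0.19 over all genes). The split moved with the scaling, to 12 higher against 6 lower by library totals and 8 against 8 by upper-quartile factors.

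HOXA13, which shapes hands, feet and the genitourinary tract, had 73, 72.7 and 71.6 CPM in siTAF5 libraries, against 109.6, 119 and 114 CPM in siNT. The groups did not overlap, and HOXA13 fell 1.58-fold (log2 -0.66, SE 0.0342, edgeR adjusted p = 7.82e-12). HOXA11, a gene of the forearm and the kidney, had 37.2, 34.8 and 35.8 CPM in siTAF5, against 59.8, 56.1 and 54.8 CPM in siNT. It fell by a similar size, 1.58-fold (log2 -0.66, SE 0.0403, edgeR adjusted p = 6.95e-11). HOXA10 had 80.5, 79.7 and 81.4 CPM in siTAF5, against 112, 106 and 109 CPM in siNT, and fell 1.35-fold (log2 -0.44, SE 0.0268, edgeR adjusted p = 8.62e-11). Every depleted library thus lay below every control library for these 3 genes.

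HOXA9, their next neighbour, had 118, 119.6 and 124 CPM in siTAF5, against 116, 118 and 114 CPM in siNT. It did not pass the test (log2 0.06, SE 0.0253, edgeR adjusted p = 0.0603), but did with scaling by library totals (adjusted p = 0.00501). Further toward the 3' end HOXA4 fell 1.25-fold and HOXA5 1.19-fold, while HOXA7 rose 1.29-fold. Among the 11 HOXA genes 2 were called higher and 5 lower.

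In the other clusters HOXD1, linked in the mouse to pain-sensing neurons, had 4.15, 3.71 and 4.28 CPM in siTAF5, against 2.15, 2.15 and 2.3 CPM in siNT, with no overlap. It rose 1.84-fold (log2 0.88, SE 0.112, edgeR adjusted p = 1.73e-06). HOXB5 rose 1.37-fold, at 18.7 ± 0.806 CPM in siTAF5 and 13.6 ± 0.792 CPM in siNT. HOXC10, a gene of spinal motor neurons, rose 1.34-fold, at 23.9 ± 0.614 CPM in siTAF5 and 17.8 ± 0.673 CPM in siNT. HOXC9, HOXC13 and HOXC6 rose 1.21-, 1.21- and 1.13-fold, and HOXC13 acts in hair and nails. HOXB2 had 34.3, 35.4 and 34.4 CPM in siTAF5, against 47.6, 45.6 and 42.7 CPM in siNT, and fell 1.3-fold (log2 -0.38, SE 0.0414, edgeR adjusted p = 2.09e-07).

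Small calls of siTAF5 against siNT were less stable. HOXB4, a gene of blood stem cells, was called lower (log2 -0.17) but not without siNT replicate 2 (edgeR adjusted p = 0.102), nor with library totals or DESeq2. HOXD13 was called higher (log2 0.07), and its call was lost in 14 of 19 alternatives, 9 of them leaving out 1 library (adjusted p of 0.052 to 0.267). The libraries were all 3 of siTAF5, all 3 of ΔE8, FL replicate 2 and siNT replicates 2 and 3.

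**Figure D3:**
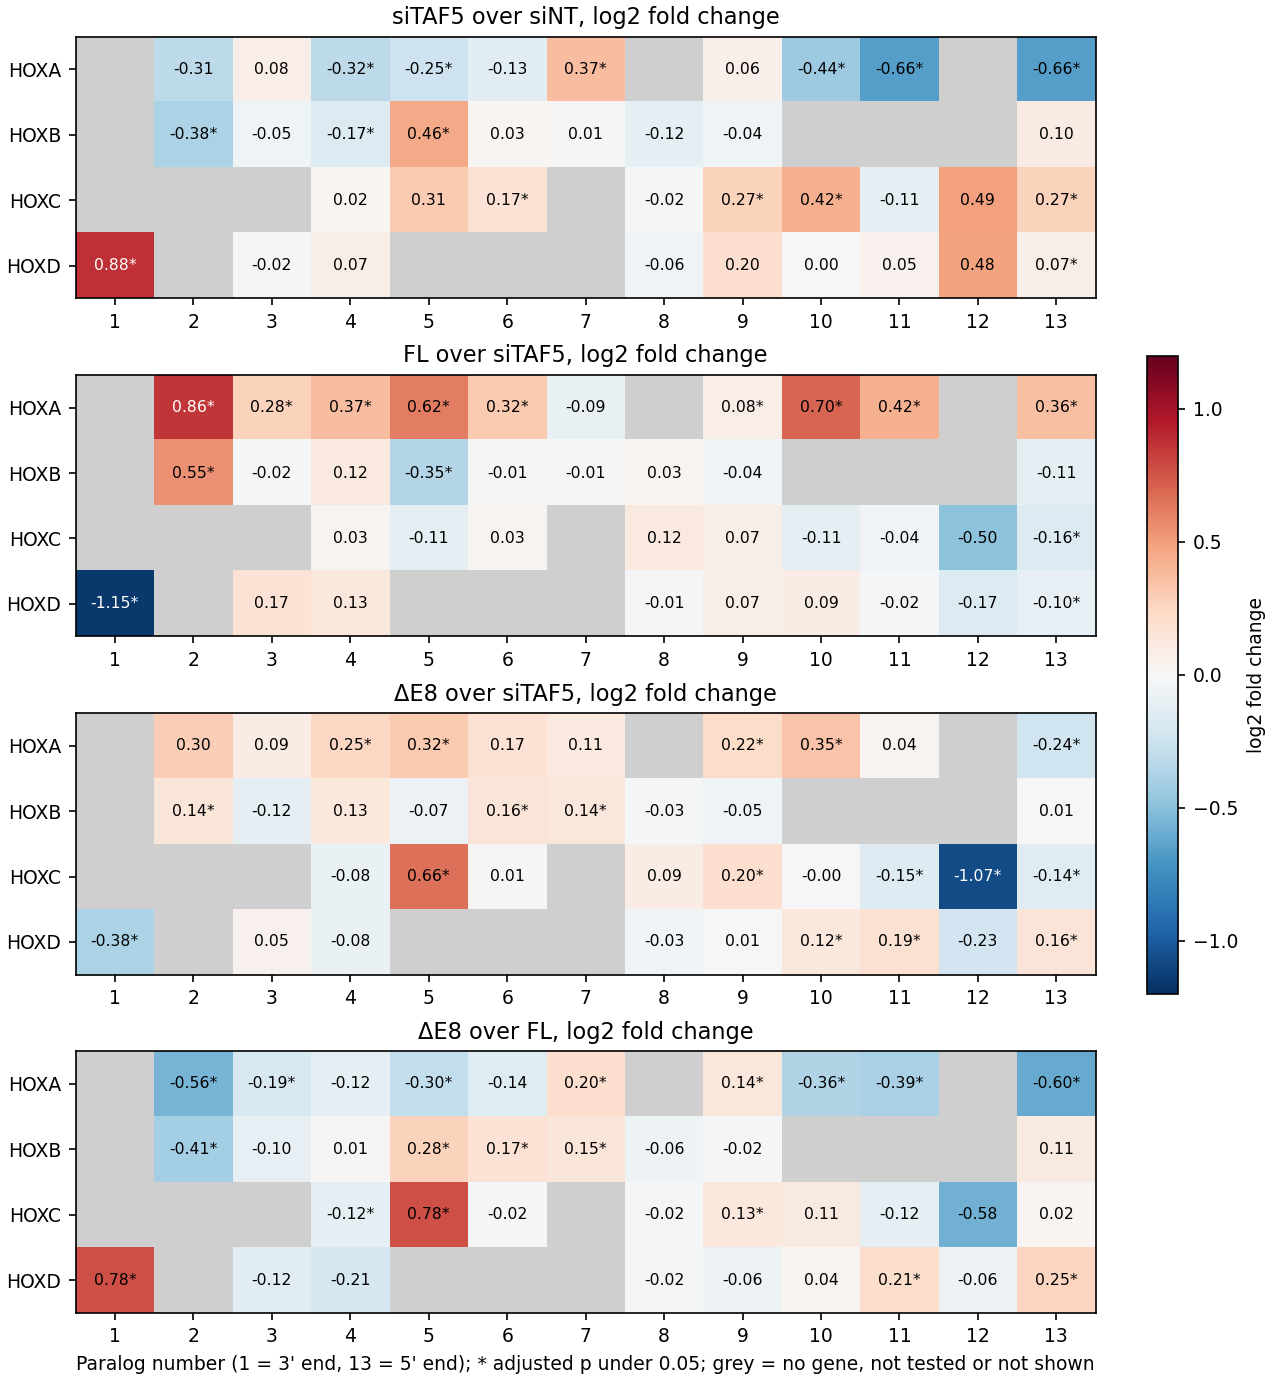
Log2 fold changes of the HOX genes by cluster (rows) and paralog number (columns) in siTAF5 over siNT, FL over siTAF5, ΔE8 over siTAF5 and ΔE8 over FL, with the calls at an edgeR adjusted p under 0.05 marked. In siTAF5 over siNT, HOXA10, HOXA11 and HOXA13 are negative (-0.44, -0.66 and -0.66) and HOXD1 is positive (0.88).

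Most of the HOXA cluster was higher with full-length TAF5 than in depleted cells. Of 11 HOXA genes 9 were higher in FL than in siTAF5. Over all clusters the edgeR test called 10 members higher and 5 lower, 39.5% of those tested, against 48.8% of all genes tested (24.4% higher, 24.4% lower) and 59.4% of those with at least 1 CPM. The median log2 difference was 0.03 over the members and -0.01 over all genes, and the median size was 0.11 over the members and 0.20 over all genes. By library totals the members split into 9 higher and 8 lower, and 39.3% of all called genes were higher, where trimmed means gave 50.1%.

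HOXA10 had 129.6, 132 and 132 CPM in FL, against 80.5, 79.7 and 81.4 CPM in siTAF5, and rose 1.63-fold (log2 0.70, SE 0.0269, edgeR adjusted p = 1.25e-13). HOXA5 had 53.8, 55.7 and 56.9 CPM in FL, against 35.8, 36.5 and 36 CPM in siTAF5, and rose 1.53-fold (log2 0.62, SE 0.0369, edgeR adjusted p = 5.4e-11). Neither gene's groups overlapped. HOXA11 rose 1.34-fold to 48.2 ± 1.1 CPM in FL, against 35.9 ± 1.21 CPM in siTAF5. HOXA13 rose 1.28-fold to 92.8 ± 3.29 CPM in FL, against 72.4 ± 0.727 CPM in siTAF5. HOXA4, HOXA6 and HOXA3 rose 1.29-, 1.25- and 1.21-fold, and HOXA3 is known for its part in thymus formation. HOXA2 rose 1.81-fold (log2 0.86, SE 0.223, edgeR adjusted p = 0.00315), at 1.21, 1.64 and 1.69 CPM in FL, against 0.681, 0.651 and 1.12 CPM in siTAF5. With 32 to 78 counts per library, HOXA2 is one of the least precise members.

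HOXB2 moved with them, at 48.9, 51.3 and 52.6 CPM in FL, against 34.3, 35.4 and 34.4 CPM in siTAF5, and rose 1.47-fold (log2 0.55, SE 0.0417, edgeR adjusted p = 1.37e-09). HOXD1 moved the other way, at 1.96, 1.64 and 1.81 CPM in FL, against 4.15, 3.71 and 4.28 CPM in siTAF5. It fell 2.23-fold (log2 -1.15, SE 0.118, edgeR adjusted p = 9.3e-08), the largest difference among expressed HOX genes in this comparison. HOXB5 fell 1.28-fold to 14.7 ± 0.159 CPM in FL, against 18.7 ± 0.806 CPM in siTAF5, and HOXC13 fell 1.12-fold. The call of HOXD13 (log2 -0.10) was lost without FL replicate 1 (edgeR adjusted p = 0.0771), and that of HOXA9 (log2 0.08) with library totals or without a filter on low counts (adjusted p of 0.0967 to 0.281).

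With TAF5 lacking exon 8, part of the HOXA cluster was higher than in depleted cells and HOXA13 was lower. The edgeR test called 12 members higher and 5 lower in ΔE8 than in siTAF5, 44.7% of those tested, against 40.6% of all genes tested (20% higher, 20.6% lower) and 50.4% of those with at least 1 CPM. Without siTAF5 replicate 3 it called 11, of which 9 were higher and 2 lower. The median log2 difference was 0.05 over the members and -0.01 over all genes, and the median size was 0.13 over the members and 0.15 over all genes. By library totals 11 were higher against 8 lower, and by upper-quartile factors 10 against 8.

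HOXA10 had 99.9, 102 and 105 CPM in ΔE8, against 80.5, 79.7 and 81.4 CPM in siTAF5, and rose 1.27-fold (log2 0.35, SE 0.0271, edgeR adjusted p = 1.22e-08). HOXA5 rose 1.25-fold to 45.1 ± 2.12 CPM in ΔE8, against 36.1 ± 0.337 CPM in siTAF5. HOXA9 rose 1.17-fold, with 141, 139 and 142 CPM in ΔE8, against 118, 119.6 and 124 CPM in siTAF5. These 3 HOXA genes were thus above the depleted level in every ΔE8 library. HOXA11 did not pass the test, at 36.8 ± 1.72 CPM in ΔE8 and 35.9 ± 1.21 CPM in siTAF5 (log2 0.04, SE 0.0422, edgeR adjusted p = 0.543), and its libraries overlapped. HOXA13 had 63.8, 60.2 and 59.3 CPM in ΔE8, against 73, 72.7 and 71.6 CPM in siTAF5, with no overlap, and fell 1.18-fold (log2 -0.24, SE 0.0359, edgeR adjusted p = 1.97e-05).

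HOXD1 fell 1.3-fold to 3.1 ± 0.412 CPM in ΔE8, against 4.05 ± 0.298 CPM in siTAF5. HOXD13 rose 1.11-fold to 78.2 ± 1.31 CPM in ΔE8, against 70.1 ± 0.735 CPM in siTAF5, and HOXD11, which acts in the kidney with its paralogs, rose 1.14-fold. HOXB6 rose 1.12-fold and HOXC9 1.15-fold. HOXC5 had 3.79, 4.58 and 2.92 CPM in ΔE8, against 2.19, 2.87 and 2.1 CPM in siTAF5 (log2 0.66, SE 0.195, edgeR adjusted p = 0.00978), and its call was lost without ΔE8 replicate 2 (edgeR adjusted p = 0.0715). HOXC12, at 5 to 17 counts per library, was also called lower. It is named after its values were seen, as the 1 low member among the calls.

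Leaving out 1 library ended further small calls in ΔE8 against siTAF5. HOXA4 (log2 0.25) lost its call without siTAF5 replicate 3, ΔE8 replicate 1 or ΔE8 replicate 3 and with DESeq2 (adjusted p of 0.0633 to 0.125). HOXB2 (log2 0.14) lost it without ΔE8 replicate 1 (edgeR adjusted p = 0.0502). HOXB7 (log2 0.14) lost it without siTAF5 replicate 3 or ΔE8 replicate 1 and with upper-quartile factors (adjusted p of 0.0567 to 0.0761). HOXC11 (log2 -0.15) and HOXC13 (log2 -0.14) lost it without siTAF5 replicate 3 or ΔE8 replicate 1, with adjusted p of 0.0702 to 0.0934 for HOXC11 and 0.0561 to 0.0589 for HOXC13. HOXD10 (log2 0.12), a gene of limb motor neurons, lost it without siTAF5 replicate 3 or ΔE8 replicate 2 and with library totals or upper-quartile factors (adjusted p of 0.0607 to 0.0957).

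Between the rescues, the 5' HOXA genes and HOXB2 were lower in ΔE8 than in FL, and HOXD1, HOXC5, HOXB5 and HOXD13 were higher. The edgeR test called 11 members higher and 8 lower, 50% of those tested, against 37% of all genes tested (17.3% higher, 19.7% lower) and 46.3% of those with at least 1 CPM. The median log2 difference was -0.02 over the members and -0.01 over all genes, and the median size was 0.14 over the members and 0.15 over all genes. By library totals 13 members were higher and 6 lower.

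HOXA13 had 63.8, 60.2 and 59.3 CPM in ΔE8, against 93.8, 95.5 and 89.1 CPM in FL. The lowest FL library stood above the highest ΔE8 library, and HOXA13 was 1.52-fold lower in ΔE8 (log2 -0.60, SE 0.0356, edgeR adjusted p = 1.39e-10). HOXA11 had 38.2, 34.9 and 37.3 CPM in ΔE8, against 47.3, 47.9 and 49.4 CPM in FL, and was 1.31-fold lower (log2 -0.39, SE 0.0415, edgeR adjusted p = 3.93e-07). HOXA10 was 1.28-fold lower, at 102 ± 2.49 CPM in ΔE8 and 131 ± 1.28 CPM in FL (log2 -0.36, SE 0.0265, edgeR adjusted p = 3.05e-09). HOXA5 was 1.23-fold lower and HOXA3 1.14-fold lower, while HOXA9 was 1.1-fold higher. In the HOXA cluster 3 genes were higher and 6 lower, and of its 4 posterior genes HOXA9 was the 1 that was higher.

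HOXB2 had 39.9, 37.3 and 37.5 CPM in ΔE8, against 48.9, 51.3 and 52.6 CPM in FL, and was 1.33-fold lower (log2 -0.41, SE 0.0414, edgeR adjusted p = 1.94e-07). HOXB5 had 17.6, 18.4 and 17.3 CPM in ΔE8, against 14.8, 14.6 and 14.5 CPM in FL, and was 1.21-fold higher. HOXD1 had 2.95, 3.56 and 2.78 CPM in ΔE8, against 1.96, 1.64 and 1.81 CPM in FL, and was 1.71-fold higher (log2 0.78, SE 0.122, edgeR adjusted p = 4.09e-05). For each of these 3 genes the groups did not overlap. HOXC5 was 1.71-fold higher (log2 0.78, SE 0.201, edgeR adjusted p = 0.00451), at 3.79, 4.58 and 2.92 CPM in ΔE8, against 1.67, 1.97 and 3.13 CPM in FL, and the groups overlapped. HOXD13 was 1.19-fold higher, at 78.2 ± 1.31 CPM in ΔE8 and 65.6 ± 1.75 CPM in FL, and HOXD11 and HOXB6 were 1.15-fold and 1.13-fold higher.

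In ΔE8 against FL 5 calls were lost when settings changed. HOXA2 (log2 -0.56) was lost in 9 of 19 alternatives, 7 of them leaving out 1 library (siTAF5 replicate 1, FL replicates 2 and 3, each ΔE8 replicate or siNT replicate 1; adjusted p over all of 0.0528 to 0.154). HOXA7 (log2 0.20) was lost in 8, namely without FL replicate 1 or 3, ΔE8 replicate 2 or 3 or siNT replicate 3, with DESeq2, with upper-quartile factors and with the replicate block (adjusted p of 0.0502 to 0.183). HOXC4 (log2 -0.12) was lost without FL replicate 1 or 2 or ΔE8 replicate 1 or 3 and with library totals (adjusted p of 0.0504 to 0.106). HOXB7 (log2 0.15) was lost without FL replicate 3 or ΔE8 replicate 1 (adjusted p of 0.0533 to 0.0542), and HOXC9 (log2 0.13) without FL replicate 2 (edgeR adjusted p = 0.052).

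Each rescue was also set against siNT cells, in comparisons that share libraries with those above. In FL 13 members were higher and 4 lower than in siNT. That was 44.7% of those tested, against 54.6% of all genes tested (27.8% higher, 26.8% lower) and 65.9% of those with at least 1 CPM. The median log2 difference was 0.10 over the members and 0.01 over all genes. HOXA13 had 92.8 ± 3.29 CPM in FL and 114 ± 4.75 CPM in siNT and was 1.23-fold lower (log2 -0.30, SE 0.0338, edgeR adjusted p = 2.92e-07), and HOXA11 was 1.18-fold lower. HOXA10, HOXA5 and HOXA3 were 1.2-, 1.29- and 1.28-fold higher in FL than in siNT, and HOXB2 was 1.12-fold higher. HOXC9, HOXC10 and HOXC6 were 1.27-, 1.24- and 1.15-fold higher in FL. HOXD1 had 1.8 ± 0.163 CPM in FL and 2.2 ± 0.0846 CPM in siNT and did not pass the test (log2 -0.28, SE 0.126, edgeR adjusted p = 0.0696).

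Of the calls in FL against siNT, HOXC13 (log2 0.11) was lost in 14 of 19 alternatives, 9 of them leaving out 1 library (siTAF5 replicate 1, siTAF5 replicate 2, siTAF5 replicate 3, FL replicate 1, FL replicate 2, ΔE8 replicate 1, ΔE8 replicate 2, siNT replicate 2 or siNT replicate 3, adjusted p of 0.0535 to 0.16). HOXA6 (log2 0.19) was lost in 12, 7 of them leaving out 1 library (siTAF5 replicate 1, siTAF5 replicate 3, FL replicate 2, FL replicate 3, ΔE8 replicate 2, ΔE8 replicate 3 or siNT replicate 1, adjusted p of 0.0506 to 0.19). HOXA2 (log2 0.55) was lost with DESeq2 or without 1 library (FL replicate 2, FL replicate 3, siNT replicate 1 or siNT replicate 3, adjusted p of 0.075 to 0.169). HOXD9 (log2 0.27) was lost in 5, 4 of them leaving out 1 library (FL replicate 2, FL replicate 3, siNT replicate 1 or siNT replicate 3, adjusted p of 0.0588 to 0.182). HOXB9 (log2 -0.07) was lost without FL replicate 3 or siNT replicate 1 (adjusted p of 0.0759 to 0.136), and HOXC11 (log2 -0.15) without FL replicate 3 (edgeR adjusted p = 0.0533).

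In ΔE8 16 members were higher and 8 lower than in siNT. That was 63.2% of those tested, against 62.2% of all genes tested (30.8% higher, 31.4% lower) and 73.2% of those with at least 1 CPM. The median log2 difference was 0.09 over the members and 0.00 over all genes. HOXA13 had 63.8, 60.2 and 59.3 CPM in ΔE8, against 109.6, 119 and 114 CPM in siNT. It was 1.87-fold lower (log2 -0.90, SE 0.0348, edgeR adjusted p = 4.92e-14), and ΔE8 had the lowest HOXA13 level of the 4 groups. HOXA11 was 1.55-fold and HOXB2 1.18-fold lower. HOXC11, which acts in the kidney with its paralogs, was 1.2-fold lower, at 19.4 ± 0.779 CPM in ΔE8 and 23.2 ± 0.366 CPM in siNT. HOXC5 was 1.97-fold higher (log2 0.98, SE 0.198, edgeR adjusted p = 0.000236), HOXD1 1.41-fold, HOXA7 1.4-fold and HOXC9 1.39-fold higher. HOXA9 was 1.21-fold and HOXD13 1.17-fold higher in ΔE8 than in siNT.

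Of the calls in ΔE8 against siNT, HOXB8 (log2 -0.15) was lost in 8 of 19 alternatives, 5 of them leaving out 1 library (FL replicate 1, FL replicate 3, ΔE8 replicate 3, siNT replicate 2 or siNT replicate 3, adjusted p of 0.0524 to 0.209). HOXC13 (log2 0.13) was lost with upper-quartile factors or without 1 library (ΔE8 replicate 3 or siNT replicate 2, adjusted p of 0.0622 to 0.0774), and HOXD10 (log2 0.13) likewise (ΔE8 replicate 2 or siNT replicate 1, adjusted p of 0.0714 to 0.0978). HOXA3 (log2 0.17) was lost without ΔE8 replicate 3 (edgeR adjusted p = 0.0549), and HOXB7 (log2 0.14) without ΔE8 replicate 1 (edgeR adjusted p = 0.0515).

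Along the HOXA cluster, neighbouring genes did not share 1 order of the groups. HOXA10 and HOXA5 were lowest in siTAF5 and highest in FL. HOXA13 was lowest in ΔE8 and highest in siNT, with no overlap between any 2 groups. HOXA11 was highest in siNT, with FL below it and the overlapping ΔE8 and siTAF5 libraries lowest. HOXA9 was highest in ΔE8 and had its lowest mean in siNT, although its span overlaps that of HOXA10. These orders describe the same 12 libraries and carry no test of their own.

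**Figure D4:**
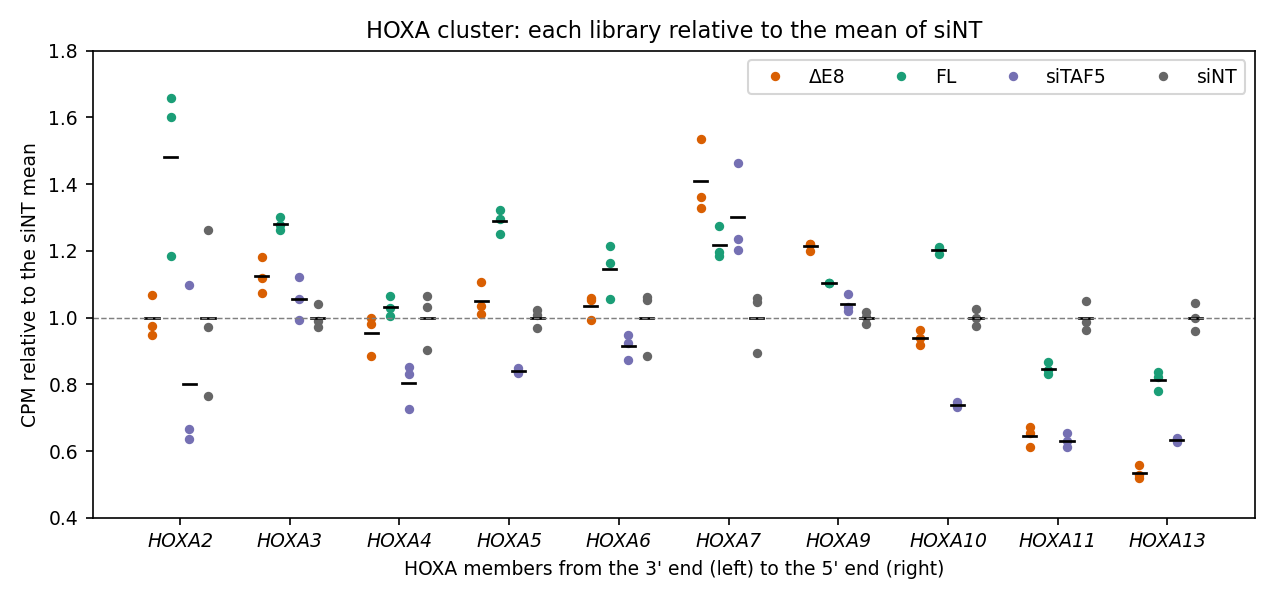
CPM of HOXA genes in each library divided by the siNT mean of that gene, along the cluster, for ΔE8, FL, siTAF5 and siNT (points) with group means. HOXA10, HOXA11 and HOXA13 are below 1 in every siTAF5 library, and HOXA13 is lowest in ΔE8 (61.1 ± 2.41 CPM, against 114 ± 4.75 CPM in siNT).

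**Figure D5:**
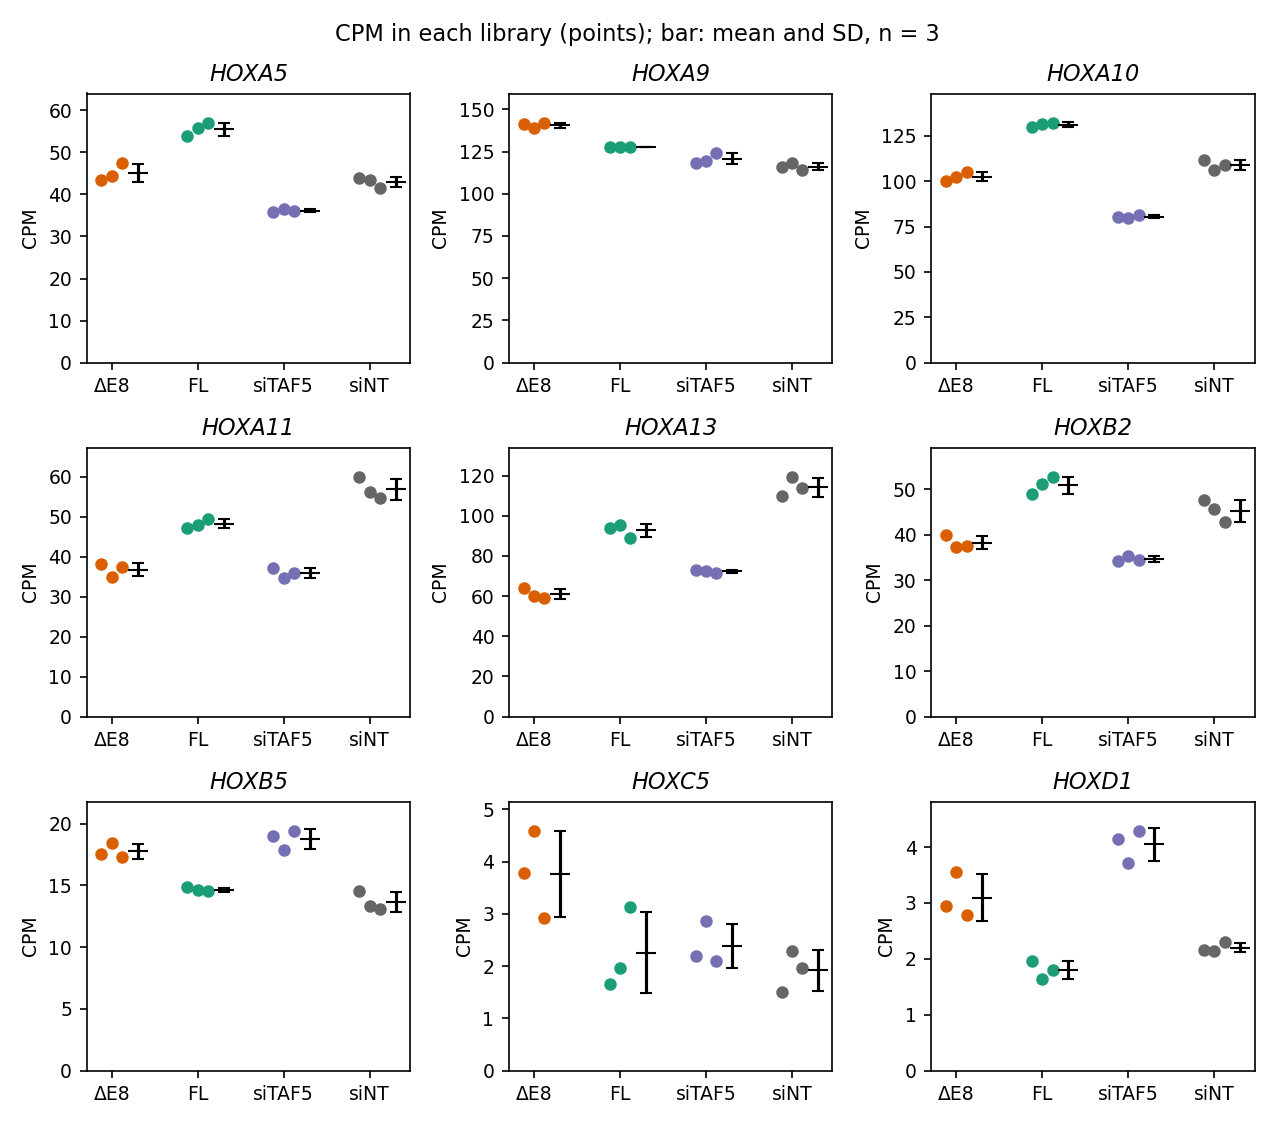
CPM in each library (points) of selected HOX genes in ΔE8, FL, siTAF5 and siNT, with the mean and SD of 3 libraries and all axes from 0. HOXA13 separates the 4 groups, and HOXD1 is highest in siTAF5 (4.05 ± 0.298 CPM).

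HOXB13, HOXC8, HOXD3, HOXD4, HOXD8 and the low HOXD12 did not pass the edgeR test in any of the 6 comparisons. HOXB13 had 14.1 ± 0.464 CPM in ΔE8, 13 ± 0.604 in FL, 14 ± 0.356 in siTAF5 and 13.1 ± 0.542 in siNT. HOXC8 had 16.4 ± 0.198 CPM in ΔE8, 16.7 ± 0.699 in FL, 15.4 ± 0.748 in siTAF5 and 15.6 ± 0.475 in siNT. In siTAF5 against siNT the log2 difference had an SE of 0.049 for HOXC8 and 0.0513 for HOXB13. The difference of HOXC8 in FL against siTAF5 (log2 0.12, SE 0.0497, edgeR adjusted p = 0.0611) and that of HOXB13 in ΔE8 against FL (log2 0.11, SE 0.0527, edgeR adjusted p = 0.105) were larger than their SE and were not called. With library totals HOXB13 was called in siTAF5 against siNT, FL against siTAF5 and ΔE8 against FL, with a smallest edgeR adjusted p of 0.0226. In FL against siTAF5 HOXC8 was called without siTAF5 replicate 3 (edgeR adjusted p = 0.0489) and HOXD3 without FL replicate 1 (edgeR adjusted p = 0.028), and HOXD3 was also called without FL replicate 1 in FL against siNT. HOXB9, second in level among the members, had 146 ± 2.4 CPM in ΔE8, 148 ± 4.4 in FL, 152 ± 3.32 in siTAF5 and 156 ± 1.95 in siNT. It is not one of the uncalled genes, as it was lower in FL and in ΔE8 than in siNT (log2 -0.07 and -0.09). The call in ΔE8 against siNT (edgeR adjusted p = 0.00495) was kept under every alternative.

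Non-coding rows lie between and across the HOX genes. The strand setting of the counting was not found, so reads of an antisense row and of the HOX gene it overlaps cannot be told apart. Of 32 such rows 26 were tested, and 7 were higher and 4 lower in siTAF5 than in siNT, near the share of 49.7% among all genes. In FL against siTAF5 2 were higher and 8 lower, where 24.4% of all genes were higher and 24.4% lower. HOTTIP, a long non-coding RNA known to act on the 5' HOXA genes, overlaps the span of HOXA13 on the other strand (chromosome 7, 27198575 to 27207259). It had 2.03, 2.12 and 2.14 CPM in ΔE8, 1.7, 1.56 and 1.67 CPM in FL, 2.96, 3.48 and 3.37 CPM in siTAF5 and 2.43, 2.41 and 2.69 CPM in siNT. HOTTIP was 1.99-fold lower in FL than in siTAF5 (log2 -0.99, SE 0.112, edgeR adjusted p = 3.72e-07), while HOXA13 was higher. HOXA-AS3 overlaps the spans of HOXA3, HOXA4, HOXA5, HOXA6 and HOXA7 on the other strand. It was 1.38-fold higher in siTAF5 than in siNT and 1.35-fold higher in ΔE8 than in FL. In both comparisons HOXA7 was also called higher, and HOXA5 was called lower. HOXA4 was called lower in the first and HOXA3 in the second, and HOXA6 was called in neither.

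Protein-coding genes beside the clusters, the 5 nearest on either side, moved in both directions. Of 39 tested neighbours 11 were higher and 11 lower in siTAF5 than in siNT, and 8 were higher and 8 lower in ΔE8 than in FL. Among all genes the same tests called 49.7% and 37%, so the neighbours' shares were near the background. CBX5, a heterochromatin protein gene beside the HOXC cluster, was 1.4-fold higher in siTAF5 than in siNT. HNRNPA1, its neighbour, encodes an RNA-binding protein and was 1.3-fold lower.

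Genes whose products act with or on HOX genes were counted as lists, beside a median over all genes of 0.00 in siTAF5 against siNT. Of 9 TALE cofactors 1 was higher and 3 lower in siTAF5 than in siNT, and 0 were higher and 3 lower in ΔE8 than in FL (median log2 0.04 and -0.08). These counts stand beside 49.7% and 37% of all genes called, and are near them. PBX2 had 132 ± 2.69 CPM in ΔE8, 158 ± 4.47 in FL, 156 ± 3.64 in siTAF5 and 183 ± 3.1 in siNT, and was 1.17-fold lower in siTAF5 than in siNT and 1.19-fold lower in ΔE8 than in FL. Of 30 Polycomb genes 9 were higher and 9 lower in siTAF5 than in siNT, with a median log2 of 0.01. Of all genes 49.7% were called, and 60.3% of those with at least 1 CPM. EZH2, the methyltransferase subunit, rose 1.25-fold, and RBBP7, a histone-binding subunit of several complexes, fell 1.49-fold.

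Of 19 MLL and trithorax genes 10 were higher and 1 lower in siTAF5 than in siNT (median log2 0.09), beside 24.7% higher and 25% lower among all genes. RBBP5 and ASH2L, both core subunits of MLL complexes, rose 1.2-fold and 1.17-fold. In FL 11 of the 19 were higher and 2 lower than in siNT, and 7 were higher and 8 lower than in siTAF5. Of all genes 27.8% were higher and 26.8% lower in FL than in siNT, and 24.4% each way in FL against siTAF5. Of 17 tested genes of retinoic acid signalling and CDX factors 1 was higher and 13 lower in siTAF5 than in siNT (median log2 -0.29), beside the same 24.7% and 25% of all genes. The receptor gene RARG had 14.3 ± 1.06 CPM in siTAF5 and 23.7 ± 1.61 CPM in siNT and fell 1.66-fold, and CRABP2, which carries retinoic acid in the cell, fell 1.46-fold. In FL 1 of the 17 was higher and 9 lower than in siNT, and 4 were higher and 4 lower than in siTAF5. Of 7 genes of CTCF and cohesin, which shape chromatin loops, 1 was higher and 5 lower in siTAF5 than in siNT, and 7 were higher and 0 lower in FL than in siTAF5 (median log2 0.21; 24.4% of all genes higher). In ΔE8 6 were likewise higher and 0 lower than in siTAF5 (median log2 0.16; 20% of all genes higher). SMC1A, a core cohesin subunit, fell 1.24-fold on depletion.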

How the data were processed

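The table holds estimated counts per gene, which the authors deposited for all 12 libraries in 1 file. Tools listed by the submitters' processing notes are Partek 10.0.23.0531, STAR 2.7.0f, DESeq2 and cutadapt 1.18, with hg38 as the build. For quantifier, annotation and strandedness of counting, nothing was given in the sources used here. Per the labels' protocols, libraries were made from polyadenylated RNA with a stranded kit.

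Of the deposited values 45.1% were not whole, so the expected counts were rounded, and a library's total moved by at most 91.27. The tests had been planned for counts. Of 32010 rows 8010 had no gene name and 12586 failed the filter on low counts (filterByExpr, minimum count of 10). The other 19424 genes were fitted together over the 4 groups in edgeR 4.0.16 (R 4.3.3, limma 3.58.1, quasi-likelihood test, trimmed-mean scaling). The 6 comparisons were contrasts of that fit, with Benjamini-Hochberg adjustment over all genes tested and a threshold of 0.05. The common coefficient of variation was 2.82% and the prior had 11.3 degrees of freedom. Replicates differed by more than sampling noise (chi-square per degree of freedom of 2.6 to 5.14), a spread that may be technical. The fit treated each library as 1 sample. The fit was tested on simulated data.

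RPKM used GENCODE 29 exon unions. Promoter windows came from RefSeq. Alternatives were library totals, upper-quartile factors, DESeq2 1.42.0, other filters, a fit of 2 groups only, a replicate block and each library left out. Members and gene lists were chosen with earlier results of these data known. Every HOX gene may be named by its level, those with at least 1 CPM by their tests, and of other lists the 3 genes with the smallest adjusted p among the calls with at least 1 CPM in a comparison. The labels name no spike-in, so all values are relative to the library. The results of 1 HOX gene are not reported here, and counts and sums over the members include it.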

Additional observations from a re-analysis of the deposited data

Results flagged for a closer look

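HOXA13 and HOXD13 moved in opposite directions with the 2 rescues. HOXA13 was lower in ΔE8 than in siTAF5 and higher in FL than in siTAF5, and the direct test of ΔE8 against FL gave a log2 difference of -0.60 (edgeR adjusted p = 1.39e-10). HOXD13 was higher in ΔE8 than in siTAF5 and lower in FL than in siTAF5, with a log2 difference of 0.25 in ΔE8 against FL (edgeR adjusted p = 1.53e-06). The call of HOXD13 in FL against siTAF5 was lost without FL replicate 1 (edgeR adjusted p = 0.0771).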

How the results depend on the processing

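No HOX gene with at least 1 CPM that was called changed direction under any of the 19 alternatives run. The count of members called in ΔE8 against siTAF5 was 17, and leaving out 1 library at a time gave 11 (without siTAF5 replicate 3) to 18. The same range was 14 to 18 in siTAF5 against siNT (16 with all libraries), 14 to 16 in FL against siTAF5 (15), 16 to 19 in ΔE8 against FL (19), 12 to 18 in FL against siNT (17) and 21 to 24 in ΔE8 against siNT (24). With a replicate block the counts were 15 in siTAF5 against siNT, 16 in FL against siTAF5, 19 in ΔE8 against siTAF5, 18 in ΔE8 against FL, 18 in FL against siNT and 25 in ΔE8 against siNT. Over all genes tested, same-numbered libraries did not deviate together (correlations of -0.051 to 0.051). Sampling noise enters these correlations, so they cannot exclude that the numbers pair the samples for part of the genes. Calls of expressed members kept under every alternative were 14 of 16 in siTAF5 against siNT, 12 of 15 in FL against siTAF5, 9 of 16 in ΔE8 against siTAF5, 14 of 19 in ΔE8 against FL, 11 of 17 in FL against siNT and 19 of 24 in ΔE8 against siNT. Expressed members that were not called gained a call under at least 1 alternative, 6 in siTAF5 against siNT, 6 in FL against siTAF5, 6 in ΔE8 against siTAF5, 5 in ΔE8 against FL, 4 in FL against siNT and 2 in ΔE8 against siNT. HOXB1 had 0 to 10 counts per library, HOXC12 5 to 17 and HOXD12 30 to 59.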
